A study of Mus musculus with 84 samples.

Results

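The CC chemokine genes described here were 10 genes of 2 clusters on mouse chromosome 11, taken by name from 21853 protein-coding genes of the annotation: Ccl2, Ccl7, Ccl11, Ccl12 and Ccl8 in the monocyte chemoattractant protein (MCP) cluster, and Ccl5, Ccl9, Ccl6, Ccl3 and Ccl4 in the macrophage inflammatory protein (MIP) cluster. Peaks of 4 histone modifications were read at their promoters, defined as 2000 bp either side of a transcription start site, and in the stretches between the genes. The data were 84 lists of CUT&Tag peaks from adipocyte nuclei of epididymal adipose tissue (epiAT). CUT&Tag uses an antibody to bring a transposase to a histone modification, so that the DNA next to it is cut and sequenced. H3K4me3 marks active start sites, H3K27ac marks active promoters and enhancers, H3K4me1 marks enhancers that are active or poised, and H3K27me3 is the repressive mark of polycomb.

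All mice carried AdipoERCre x NuTRAP, on a background the labels call C576BL6. AdipoERCre is a Cre recombinase made in adipocytes and switched on by tamoxifen, which every mouse received at 4 to 5 weeks of age, and NuTRAP is a reporter that puts biotin on the nuclei of cells in which Cre was active, so that these nuclei could be pulled down. In the 12-week cohort, C mice ate chow and were 18 weeks old, H mice were the same age and had eaten high-fat diet (HFD) for 12 weeks, CC_s mice ate chow and were 26 weeks old, and HC mice of 26 weeks had eaten HFD for 12 weeks and then chow for 8 weeks, the period of weight loss (WL). In the 25-week cohort, CC_l mice ate chow and were 31 weeks old, HH mice of 31 weeks had eaten HFD for 25 weeks, CCC mice ate chow and were 39 weeks old, and HHC mice of 39 weeks had eaten HFD for 25 weeks and then chow for 8 weeks. Of the 32 groups of 1 mark and 1 diet, 20 had 3 libraries and 12 had 2. Libraries with the same diet and replicate number came from the same epiAT sample. For H3K4me3, the title and the treatment field name different groups in 4 libraries, namely HH replicates 2 and 3, CCC replicate 3 and CC_l replicate 2, and groups were taken from titles.

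The libraries held 11249 to 46397 peaks, and those of the 12-week cohort mostly held fewer than those of the 25-week cohort. Which cohort a mouse belonged to and how its library was prepared cannot be told apart, so that diet groups were compared with age-matched controls inside a cohort. The promoters of 10 adipocyte marker genes, among them Adipoq and Plin1, carried H3K4me3 in all cases except 1 gene in HC replicate 3 and 3 genes in HHC replicate 3. Of 15 macrophage and pan-leukocyte markers, among them Adgre1 and Ptprc, 0 to 14 promoters carried H3K4me3, and these counts stand beside the chemokine results below. In bulk nuclei, a peak carried by fewer nuclei and a weaker mark in each nucleus cannot be told apart.

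CC chemokines are small secreted proteins with adjacent cysteines near the amino terminus. They bind G protein-coupled receptors on leukocytes and draw these cells along a gradient. In obese adipose tissue, CCL2 acting on CCR2 is a known signal for the recruitment of monocytes, which become tissue macrophages, and macrophages and T cells themselves make CCL3, CCL4 and CCL5. The genes of each cluster arose by duplication and lie close together. Many are switched on by NF-kB, AP-1 and interferon-regulated factors during inflammation.

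The MCP cluster, taken from 10000 bp before its first to 10000 bp after its last member, was chr11:82025571-82126799 (GRCm38), a span of 101229 bp, of which 78233 bp lay outside all coding promoter windows. Its genes all lie on the plus strand: Ccl2 at chr11:82035571-82037453, Ccl7 at chr11:82045712-82047525, Ccl11 at chr11:82057823-82062955, Ccl12 at chr11:82101845-82103400 and Ccl8 at chr11:82115185-82116799. The MIP cluster was chr11:83515778-83674683, a span of 158906 bp, with 131166 bp outside promoter windows. Here Ccl5 at chr11:83525778-83530518, Ccl9 at chr11:83572919-83578636, Ccl6 at chr11:83587882-83593087 and Ccl3 at chr11:83647844-83649355 lie on the minus strand, and Ccl4 at chr11:83662584-83664683 lies on the plus strand. Each of the 10 genes has 1 annotated start site. Other coding genes with a start site in the spans were Gm17268 in the MCP cluster, whose promoter window overlaps that of Ccl2, and Heatr9 and Rpl9-ps1 in the MIP cluster. Heatr9 and Rpl9-ps1 had no promoter peak of any mark in any library, and Gm17268 had H3K4me1 in 15 of 22, H3K27ac in 9 of 21 and H3K4me3 in 1 of 21 libraries.

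The regulatory sequences shown first are those in which peaks of the clusters fell. The set of RefSeq promoter sequences used here (GRCm38.p6), 250 bases before to 50 bases after the start, held 5 members: Ccl3, Ccl6, Ccl8, Ccl9 and Ccl12. Ccl2, Ccl4, Ccl5, Ccl7 and Ccl11 had no entry in that set. The 4 of those 5 promoters that carried H3K4me3 in at least 1 library are printed 5′ to 3′ on the strand of the gene, with motif matches in capitals.
Ccl3, chr11:83649329-83649628, minus strand: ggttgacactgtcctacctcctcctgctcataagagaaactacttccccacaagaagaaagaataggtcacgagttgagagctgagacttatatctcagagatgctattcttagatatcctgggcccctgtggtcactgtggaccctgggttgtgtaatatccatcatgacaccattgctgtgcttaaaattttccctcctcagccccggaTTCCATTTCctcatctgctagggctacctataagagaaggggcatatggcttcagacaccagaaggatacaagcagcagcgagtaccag
Ccl6, chr11:83593038-83593337, minus strand: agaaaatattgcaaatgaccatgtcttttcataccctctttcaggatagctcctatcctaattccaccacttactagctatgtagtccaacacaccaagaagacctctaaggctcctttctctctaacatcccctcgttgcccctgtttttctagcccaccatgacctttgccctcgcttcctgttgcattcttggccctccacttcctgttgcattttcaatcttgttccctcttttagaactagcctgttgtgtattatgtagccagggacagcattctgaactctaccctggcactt
Ccl9, chr11:83578587-83578886, minus strand: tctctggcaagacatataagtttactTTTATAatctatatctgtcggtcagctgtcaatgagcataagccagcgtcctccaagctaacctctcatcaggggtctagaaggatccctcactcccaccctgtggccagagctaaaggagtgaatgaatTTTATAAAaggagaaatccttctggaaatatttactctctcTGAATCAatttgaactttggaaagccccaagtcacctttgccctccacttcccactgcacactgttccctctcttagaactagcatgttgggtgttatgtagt
Ccl12, chr11:82101595-82101894, plus strand: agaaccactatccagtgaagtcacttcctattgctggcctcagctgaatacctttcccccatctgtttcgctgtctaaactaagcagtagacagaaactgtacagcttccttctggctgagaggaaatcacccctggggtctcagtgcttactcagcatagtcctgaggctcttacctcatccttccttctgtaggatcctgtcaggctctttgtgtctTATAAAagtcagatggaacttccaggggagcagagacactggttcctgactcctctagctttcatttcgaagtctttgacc

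Motifs were searched on both strands by their letters, N standing for any base: the NF-kB core GGANTTTCC, AP-1 TGANTCA, C/EBP TTGCNNAA, a TATA box TATAAA, the interferon response element GAAANNGAA and the cyclic AMP response element (CRE) TGACGTCA. Ccl3 held 1 match, to the interferon response element, on the minus strand 39 to 31 bases before its RefSeq start. That start lies 23 bp upstream of the annotated Ccl3 start used for the peaks. Ccl9 held the AP-1 letters 53 to 47 bases before the start, a palindrome counted on both strands, and 3 TATA matches whose first bases lay 224, 94 and 92 bases before it, the last 2 of which overlap. The TATA match of Ccl12 lay 31 to 26 bases before its start, that of Ccl8 32 to 27 bases, and Ccl6 had no match in its window. Among 32851 RefSeq promoters of this length, 1.25% held the NF-kB letters, 7.81% AP-1, 10.8% C/EBP, 13.6% TATA, 8.56% the interferon response element and 1.79% the CRE. The 5 chemokine promoters had a GC content of 43.7% to 48% and 2 to 3 CpG dinucleotides, beside medians of 52.7% and 7 over all promoters.

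At the promoters, the clusters carried the marks of activity less often than the average gene and the enhancer mark more often. Over the 10 genes and all libraries, a peak of H3K4me3 was present in 42 of 210 cases (20%, beside 58.1% over all coding genes), of H3K27ac in 52 of 210 (24.8%, beside 41.3%), of H3K4me1 in 76 of 220 (34.5%, beside 25%), and of H3K27me3 in 7 of 200 (3.5%, beside 18.9%). The genes differed widely. Ccl7 led with H3K4me1 in 19 of 22 libraries, H3K27ac in 14 of 21 and H3K4me3 in 8 of 21, and Ccl2 followed with 18, 13 and 7. Ccl8 had none of these 3 marks in any library. Ccl4, Ccl5 and Ccl12 each carried an active mark in no more than 1 library per mark. Where H3K4me3 was present at a member, it sat with H3K4me1 in the same epiAT sample, matched by title, in 28 of 42 cases and with H3K27ac in 23 of 41.

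**Figure D1:**
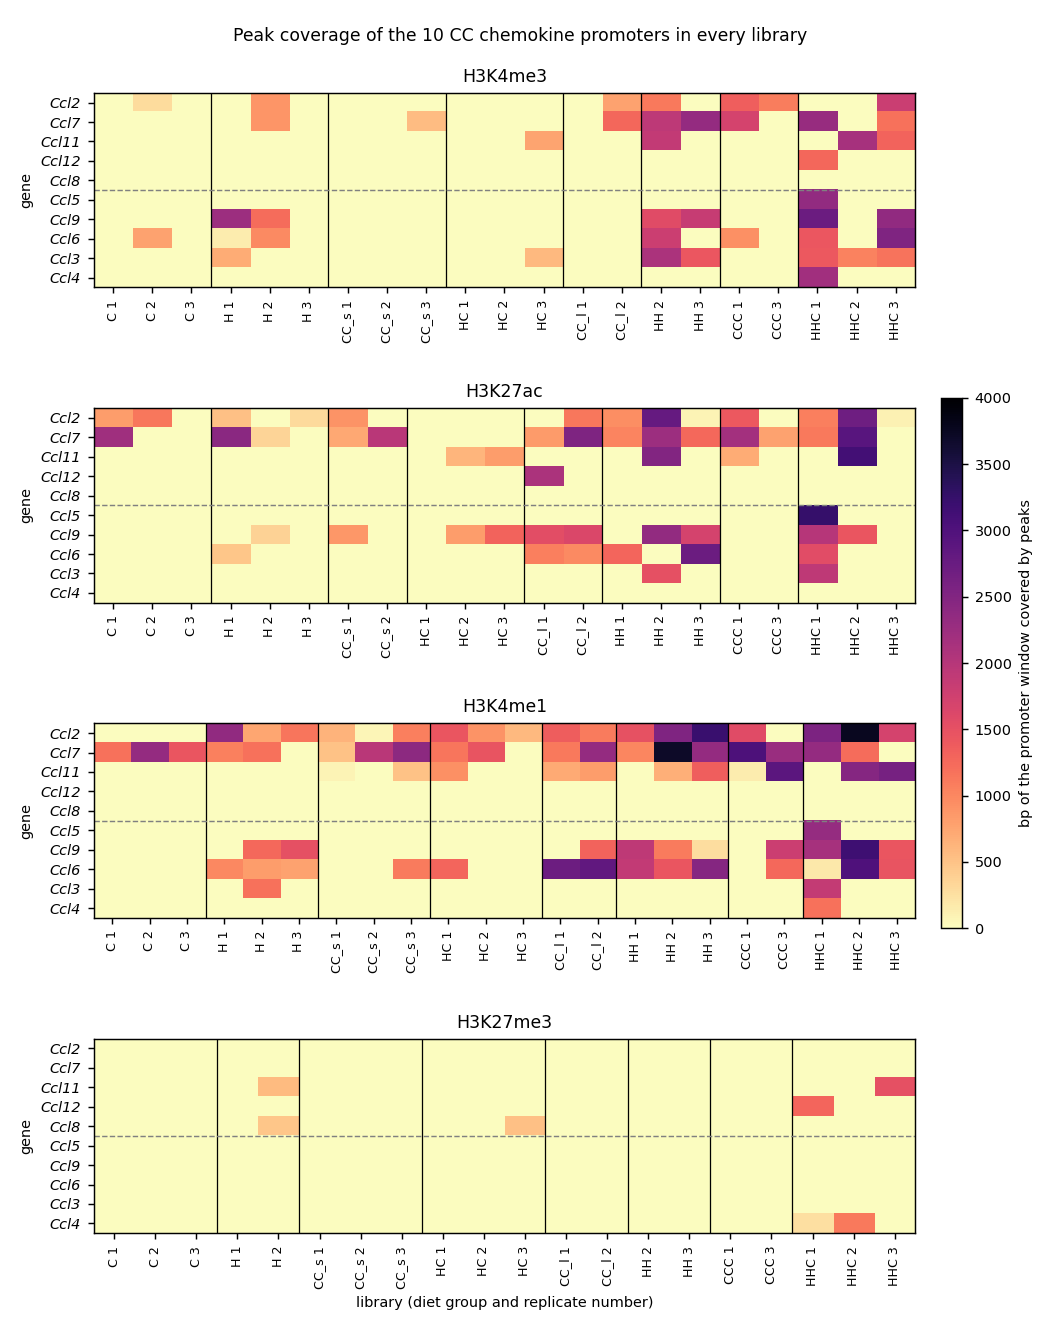
Base pairs of each promoter window covered by peaks, for the 10 chemokine genes (rows) in every library (columns, ordered by diet group), with 1 panel per mark and colour giving base pairs. By title, Ccl3 and Ccl9 carry H3K4me3 only in libraries of mice fed HFD at some time, while Ccl7 carries H3K4me1 in 19 of 22 libraries, controls included.

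CCL3, also called MIP-1 alpha, is a ligand of CCR1 that attracts monocytes and T cells. With groups from titles, H3K4me3 at its promoter was absent from all 10 control libraries and present in 7 of 11 libraries of HFD or WL mice. The treatment field instead names control groups for both HH libraries, which carried the peak. The H replicates had 691, 0 and 0 bp covered and the C replicates 0 bp each. After 25 weeks of HFD, the HH libraries had 2099 and 1426 bp covered and both CC_l libraries 0 bp. In WL mice of the 12-week cohort, HC replicates had 0, 0 and 592 bp and all CC_s replicates 0 bp. In WL mice of the 25-week cohort, the HHC replicates had 1410, 1038 and 1166 bp and both CCC libraries 0 bp. HH and HHC libraries thus lay above their controls without overlap, whereas H and HC each had 1 library with a peak. In 6 of the 7 libraries the peak covered the start site, and its summed signal ranked between percentiles 0.9 and 56.4 of the peaks of its library.

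CCL9 is a rodent ligand of CCR1 made by myeloid cells. By title, its promoter was likewise marked in diet libraries only, with H3K4me3 in 0 of 10 control and 6 of 11 diet libraries. The treatment field names control groups for both HH libraries. H replicates had 2236, 1229 and 0 bp covered, HH libraries 1567 and 1830 bp, and HHC replicates 2722, 0 and 2350 bp. HC replicates had 0 bp each, as had every control library. Ccl6, whose protein also binds CCR1 and is found only in rodents, was less clear, with H3K4me3 in 2 of 10 control and 5 of 11 diet libraries. Its covered base pairs were 0, 772 and 0 in C, 149, 978 and 0 in H, 1788 and 0 in HH, 930 and 0 in CCC, and 1428, 0 and 2520 in HHC, so that controls and diet groups overlapped.

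Ccl5, the T cell chemoattractant RANTES, and Ccl4, MIP-1 beta, carried H3K4me3 in HHC replicate 1 alone, with 2329 and 2190 bp covered. The same epiAT sample was the only one with H3K27ac at Ccl5 (3248 bp) and with H3K4me1 at Ccl5 (2305 bp) and Ccl4 (1177 bp). It also had the most members marked by H3K4me3, 7 of 10, with 14 of 15 macrophage and 8 of 8 lymphocyte markers.

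The monocyte chemoattractants were marked by H3K4me3 in controls as well. At Ccl2, which encodes the main CCR2 ligand, 4 of 10 control and 3 of 11 diet libraries had a peak, with 0, 290 and 0 bp in C, 0, 890 and 0 bp in H, 0 and 772 bp in CC_l, 1119 and 0 bp in HH, 1351 and 1093 bp in CCC, and 0, 0 and 1806 bp in HHC. At Ccl7, a further CCR2 ligand, 3 of 10 control and 5 of 11 diet libraries had one. Both HH libraries were covered at Ccl7 (1928 and 2324 bp), but so was 1 of the 2 CC_l libraries (1278 bp). Ccl11 encodes eotaxin, the CCR3 ligand that attracts eosinophils. By title, it had H3K4me3 in 4 of 11 diet and 0 of 10 control libraries. The cover was 755 bp in HC replicate 3, 1881 bp in HH replicate 2, and 2153 and 1310 bp in HHC replicates 2 and 3. Ccl12, a CCR2 ligand of the mouse, had 1 peak, of 1269 bp, in HHC replicate 1.

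No gene passed the tests once all genes were counted, and with groups of this size no gene could have passed alone. Presence and covered base pairs were compared by an exact two-sided permutation test that shuffled labels within cohorts, with Benjamini-Hochberg adjustment over all genes. Obese here means H and HH against C and CC_l, and WL means HC and HHC against CC_s and CCC. At Ccl9, H3K4me3 presence was 83.3 percentage points higher in obese libraries (exact permutation p = 0.0667, adjusted p = 1) and 1427 more base pairs were covered (p = 0.0667, adjusted p = 0.783). At Ccl3, presence was 66.7 points higher in obese libraries (exact permutation p = 0.167, adjusted p = 1) and 66.7 points higher in WL libraries (p = 0.05, adjusted p = 1, 4 of 6 WL and 0 of 5 control libraries marked), with 701 more base pairs covered in WL (p = 0.05, adjusted p = 0.702). With groups from the treatment field, the obese difference at Ccl3 turned to -8.33 points and -241 bp. That field also places both HH libraries with a Ccl9 peak among controls, so the Ccl9 difference depends on the titles too. The smallest p this design allows was 0.0167 for the obese and 0.005 for the WL comparison of H3K4me3. At these floors a gene could pass only if many genes reached the floor together. The absence of calls therefore does not show that the groups were alike. No member passed in either measure, and neither did any other gene: the share of genes called was 0%, at 26 of 6141 genes with an unadjusted p of at most 0.05 for obese presence, 897 of 15251 for obese covered base pairs, 167 of 5898 for WL presence and 1085 of 15483 for WL covered base pairs.

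A second rule, without a test, counted a promoter as gained when every library of a diet group and no library of its control was marked, and as lost in the reverse case. For H3K4me3, Ccl3 and Ccl9 were gained in HH against CC_l, where 1.86% of 15140 genes were gained and 2.58% gained or lost. Ccl3 was gained in HHC against CCC, where 1.95% of 15429 genes were gained and 2.5% gained or lost. No member was gained or lost in H against C (2.74% of genes) or in HC against CC_s (0.54%). With each library reduced to its 11249 peaks of highest summed signal, no member was gained in HH or HHC, and with groups taken from the treatment field Ccl2 was the single gained member in HH against CC_l and none was gained in HHC against CCC. Without HH replicate 3, Ccl6 and Ccl11 joined Ccl3 and Ccl9, and without H replicate 3, Ccl9 was gained in H against C. Over all genes, leaving out 1 library raised the number gained or lost from 391 to between 635 and 1225 in HH against CC_l, and from 381 to between 403 and 645 in H against C.

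By title, macrophage markers moved with the same libraries. The treatment field instead names both HH libraries as controls, and CC_l replicate 2 and CCC replicate 3 as HH. The H3K4me3 counts of HH, CC_l and CCC in this paragraph, and the genes gained, therefore depend on titles. The number of 15 macrophage promoters with H3K4me3 was 4 to 6 in C, 13, 14 and 0 in the H replicates, 0 to 3 in CC_s, 1, 1 and 9 in the HC replicates, 5 in both CC_l, 14 in both HH, 4 to 7 in CCC and 11 to 14 in HHC libraries. Of 8 lymphocyte markers, 4 to 6 had H3K4me3 in HH beside 2 to 4 in CC_l, and 7 to 8 in HHC beside 1 in CCC. Of 6 endothelial markers, 6 had H3K4me3 in both HH libraries beside 2 to 4 in CC_l, and 3 to 5 in HHC beside 1 in CCC. Of 6 mesothelial markers, 2 in HH lay beside 2 to 3 in CC_l, and of 6 progenitor markers, 5 in HH beside 4 in CC_l. The part of such nuclei in the chemokine peaks was not tested. Among the macrophage markers, Adgre1, C1qa, C1qb, Csf1r, Fcgr1, Lyz2, Mpeg1 and Ptprc were gained in HH against CC_l, and Adgre1, Lyz2, Mrc1 and Ptprc in HHC against CCC. Of the lymphocyte markers, Cd79a was gained in HH, and Cd3d, Cd3g, Cd79a, Ms4a1 and Nkg7 in HHC. Of the endothelial markers, Emcn and Tie1 were gained in HH, and Cdh5 and Pecam1 in HHC. Mesothelial Lrrn4 was lost in H against C, and progenitor Dpp4 was gained in HC against CC_s. The number of chemokine promoters with H3K4me3 per library was 2.33 ± 2.08 (SD, n = 3) in H beside 0.667 ± 1.15 (n = 3) in C, and 4.5 ± 2.12 (n = 2) in HH beside 1 ± 1.41 (n = 2) in CC_l. After WL it was 0.667 ± 1.15 (n = 3) in HC beside 0.333 ± 0.577 (n = 3) in CC_s, and 5 ± 2.65 (n = 3) in HHC beside 2 ± 1.41 (n = 2) in CCC. Averaged over cohorts, obese libraries had 2.58 more members marked and WL libraries 1.67 more, which became 0.167 and 0 with equal numbers of peaks. Of the 6 members tested for obese covered base pairs, the median difference was 698 bp, beside -212 bp over all 15251 genes tested. These medians cannot be set against each other. Ccl3, Ccl9 and Ccl11 had no peak in any C or CC_l library and could only rise, while 8658 genes were marked in every H3K4me3 library and could fall.

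**Figure D2:**
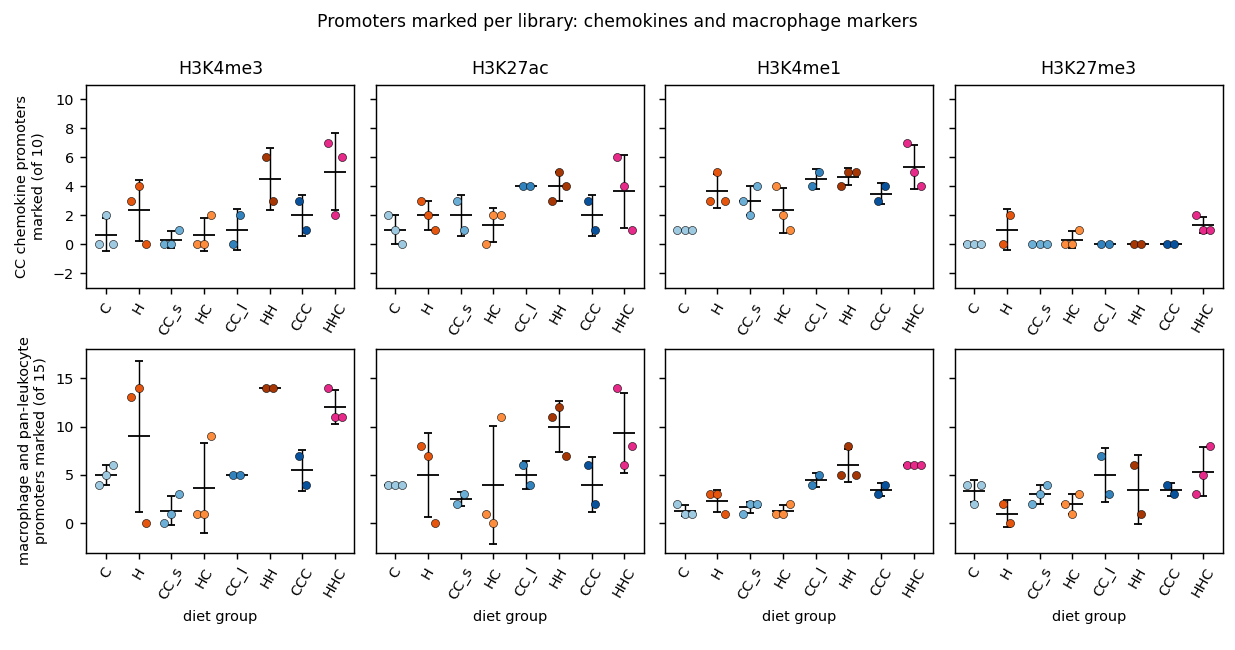
Number of the 10 chemokine promoters with a peak (vertical axis) in each library (points) by diet group (horizontal axis), with 1 column of panels per mark, and below it the same count for 15 macrophage and pan-leukocyte promoters; horizontal bars are group means and vertical bars 1 SD. For H3K4me3, with groups from titles, the HH libraries lie at 3 and 6 and the CC_l libraries at 0 and 2. For H3K27me3 every control library lies at 0.

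H3K27ac at the promoters was shared by diet and control libraries. Ccl7 had it in 7 of 9 control and 7 of 12 diet libraries, Ccl2 in 5 of 9 and 8 of 12, Ccl9 in 3 of 9 and 7 of 12, Ccl6 in 2 of 9 and 4 of 12, and Ccl11 in 1 of 9 and 4 of 12. At Ccl7, both CC_s libraries were covered (719 and 1962 bp) and no HC replicate was. Elsewhere its groups overlapped, with 2207, 0 and 0 bp in C, 2412, 345 and 0 bp in H, 840 and 2536 bp in CC_l, 1026, 2241 and 1253 bp in HH, 2183 and 772 bp in CCC, and 1114, 2907 and 0 bp in HHC. Ccl7 was therefore lost in HC against CC_s, beside 0.902% of 11861 genes lost and 1.45% gained or lost. It was not lost with promoter windows of 500 or 5000 bp, and without CC_s replicate 2, Ccl2 was lost as well. The share of WL libraries with H3K27ac at Ccl7 was 66.7 points below that of their controls (p = 0.06 by exact permutation, adjusted p = 0.971), and the covered base pairs were 739 fewer (p = 0.32, adjusted p = 0.947).

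Ccl9 and Ccl6 were acetylated in both CC_l libraries and in neither CCC library. CC_l libraries had 1532 and 1641 bp of H3K27ac at Ccl9 and 1078 and 970 bp at Ccl6. By title, the same mice had no H3K4me3 peak at either promoter, but the treatment field places H3K4me3 CC_l replicate 2 in HH. HH replicates had 0, 2337 and 1690 bp at Ccl9 and 1285, 0 and 2727 bp at Ccl6, overlapping CC_l. HHC replicates had 1992, 1449 and 0 bp at Ccl9 and 1557, 0 and 0 bp at Ccl6, beside 0 bp in both CCC libraries. Of these, CCC replicate 3 held few H3K27ac peaks, 14917 beside 32907 in CCC replicate 1. At Ccl3, H3K27ac was limited to HH replicate 2 (1503 bp) and HHC replicate 1 (1913 bp), and Ccl12 had it in CC_l replicate 1 (2102 bp). In the remaining comparisons no member was gained or lost for H3K27ac: H against C (4.23% of all genes called), HH against CC_l (1.39%) and HHC against CCC (3.96%). Members marked per library differed by 0.5 in both the obese and the WL comparison, but by -0.167 in the obese one with a window of 5000 bp, and in the WL one by -0.417 with equal numbers of peaks and by -0.0833 without HHC replicate 1. No gene passed after adjustment (0% called, with 230 of 10251 and 55 of 11348 genes at an unadjusted p of at most 0.05 for presence). Macrophage promoters with H3K27ac numbered 7 to 12 of 15 in HH beside 4 to 6 in CC_l, and 0 to 8 in H beside 4 in each C replicate.

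H3K4me1 at Ccl2 separated H from C. The H replicates had 2351, 750 and 1150 bp covered and the C replicates 0 bp each. Other controls carried the mark too: CC_s replicates had 630, 65 and 1070 bp beside 1452, 891 and 583 bp in HC, CC_l libraries 1369 and 1106 bp beside 1486, 2519 and 3216 bp in HH, and CCC libraries 1572 and 0 bp beside 2550, 3761 and 1697 bp in HHC. Every one of the 12 diet libraries and 6 of 10 controls thus carried H3K4me1 at Ccl2, and in the 25-week cohort HH and HHC covered more base pairs than any library of their controls. Averaged over cohorts, obese libraries had 1293 more base pairs covered at Ccl2 (exact permutation p = 0.01, adjusted p = 0.731) and WL libraries 1135 more (p = 0.07, adjusted p = 0.722). Over all genes tested, H3K4me1 cover also rose, by a median of 174 bp in obese and 279 bp in WL libraries. How many genes separated from their controls as Ccl2 did was not counted. Presence in obese libraries was 50 points higher (exact permutation p = 0.1, adjusted p = 1).

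Ccl6 behaved likewise in the 12-week cohort, with 987, 824 and 769 bp of H3K4me1 in H and 0 bp in each C replicate, but CC_l libraries had the wider cover (2709 and 2826 bp, beside 1884, 1445 and 2465 bp in HH). The obese presence at Ccl6 was 50 points higher (exact permutation p = 0.1, adjusted p = 1), while covered base pairs differed by 11.9 (p = 0.97). Ccl9 had H3K4me1 in 2 of 10 control and 8 of 12 diet libraries: 0, 1255 and 1514 bp in H, 1909, 1101 and 280 bp in HH, 2146, 3170 and 1441 bp in HHC, and 0 and 1312 bp in CC_l and 0 and 1782 bp in CCC. Its presence was 58.3 points higher in obese libraries (exact permutation p = 0.08, adjusted p = 1). Ccl7 went the other way after WL, when HC replicate 3 and HHC replicate 3 had no peak while all 5 matched controls had 512 to 3031 bp, a difference of -1114 bp (exact permutation p = 0.095, adjusted p = 0.722). Ccl11 had H3K4me1 in 6 of 10 control and 5 of 12 diet libraries.

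By the rule without a test, Ccl2 and Ccl6 gained H3K4me1 in H against C, beside 2.16% of 6379 genes gained and 3.4% gained or lost. With equal numbers of peaks or a window of 500 bp, Ccl2 alone was gained, and with a window of 5000 bp, Ccl6 alone. No member was gained or lost in HC against CC_s (1.18% of genes), HH against CC_l (4.84%) or HHC against CCC (7.27%). Members marked per library were 3.67 ± 1.15 (SD, n = 3) in H beside exactly 1 in each of the 3 C replicates, where Ccl7 was the marked gene, and 4.67 ± 0.577 (n = 3) in HH beside 4.5 ± 0.707 (n = 2) in CC_l. Libraries of C held 18477 to 18764 H3K4me1 peaks and those of H 20092 to 27244, and the part of this gap in the difference was not tested beyond the equal numbers of peaks above. Of the 15 macrophage promoters, 1 to 3 had H3K4me1 in H beside 1 to 2 in C, and 5 to 8 in HH beside 4 to 5 in CC_l. No gene passed after adjustment for H3K4me1 (0% called), with 748 of 12536 genes at an unadjusted p of at most 0.05 for obese covered base pairs and 723 of 13776 for WL.

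H3K27me3 was rare at the promoters of the clusters and came there in diet libraries only: 0 of 100 control cases and 7 of 100 diet cases. Between the genes of the MIP cluster, a control library, CC_l replicate 2, had 627 bp of it. Ccl8, which encodes MCP-2, had 471 bp in H replicate 2 and 517 bp in HC replicate 3. Ccl11 had 573 bp in H replicate 2 and 1501 bp in HHC replicate 3, Ccl12 had 1289 bp in HHC replicate 1, and Ccl4 had 253 and 1112 bp in HHC replicates 1 and 2. Just 2 of these 7 peaks covered the start site. No member was gained or lost in H against C (11.1% of all genes), HC against CC_s (3.26%), HH against CC_l (5.41%) or HHC against CCC (5.64%), and the 2 members tested for obese and 4 tested for WL presence did not pass (0% of genes called). In HHC replicate 1 the promoters of Ccl4 and Ccl12 carried H3K27me3 and H3K4me3 in the same epiAT sample.

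Between the genes, peaks were merged over all libraries of a mark into regions that touched no coding promoter window. The MCP cluster held 3 H3K4me3, 4 H3K27ac, 5 H3K4me1 and 13 H3K27me3 regions, and the MIP cluster 10, 14, 11 and 4. Printed below are 2 stretches on which the results between the genes turn, and both were chosen after their values were seen. They are the central 300 bases of the part covered in the most libraries, on the plus strand of GRCm38.p6, with motif matches in capitals.
Upstream of Ccl5, chr11:83534667-83534966, covered by H3K4me3 in 12 libraries: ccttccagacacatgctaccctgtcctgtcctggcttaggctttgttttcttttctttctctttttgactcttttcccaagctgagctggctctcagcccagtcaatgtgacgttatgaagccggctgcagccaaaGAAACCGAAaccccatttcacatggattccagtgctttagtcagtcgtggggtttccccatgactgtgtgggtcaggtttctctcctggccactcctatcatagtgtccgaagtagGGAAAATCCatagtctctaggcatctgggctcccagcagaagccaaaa
Downstream of Ccl11, chr11:82072718-82073017, covered by H3K4me1 in 20 libraries: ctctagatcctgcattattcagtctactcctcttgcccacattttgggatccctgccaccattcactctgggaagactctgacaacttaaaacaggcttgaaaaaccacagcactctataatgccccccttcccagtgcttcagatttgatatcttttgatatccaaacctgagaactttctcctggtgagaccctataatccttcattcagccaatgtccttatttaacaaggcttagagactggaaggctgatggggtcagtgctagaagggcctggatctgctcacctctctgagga

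The stretch upstream of Ccl5 held the interferon response letters at bases 137 to 145 on the plus strand and the NF-kB letters at bases 253 to 261 on the minus strand, and the stretch downstream of Ccl11 held no match. In the central 300 bases of 53440 distal H3K4me1 regions, 1.27% held the NF-kB letters, 10.1% the interferon response element, 10.5% AP-1, 14.6% C/EBP, 17.2% TATA and 0.208% the CRE.

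The H3K4me3 region at chr11:83533968-83536978, in intergenic sequence 3450 bp upstream of the Ccl5 start, was the one most often marked in the MIP cluster, in 12 of 21 libraries. The 3 C replicates had 1049, 662 and 668 bp and no H replicate had any. Over the whole genome, H3K4me3 peaks also covered less in H (11.04 to 30.22 Mb) than in C (41.03 to 53.35 Mb). Of all distal H3K4me3 regions, 1673 were lost and 8 gained in H against C, and 2222 were lost and 1241 gained in HHC against CCC. CC_l libraries had 1026 and 1290 bp and HH libraries 593 and 802 bp. After WL the order was the opposite of that in H and C: HC replicates had 528, 0 and 805 bp beside 0 bp in each CC_s replicate, and HHC replicates had 3011, 1761 and 1417 bp beside 0 bp in both CCC libraries. The region was thus lost in H against C and gained in HHC against CCC, but with groups from the treatment field no H3K4me3 region of the clusters was gained or lost in HHC against CCC. Its presence was 83.3 points higher in WL libraries (exact permutation p = 0.02, adjusted p = 1, 5 of 6 WL and 0 of 5 control libraries). A wider promoter window of 5000 bp takes this region in, and Ccl5 was then lost in H against C and gained in HHC against CCC.

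An H3K4me1 region at chr11:83532614-83539511 contained the whole H3K4me3 region. It was marked in all 3 HHC replicates (6898, 2876 and 2395 bp) and neither CCC library, in all 3 HH replicates (1183, 1360 and 1316 bp) and 1 CC_l library (2039 bp), in 2 of 3 H (681, 2663 and 0 bp) and 0 of 3 C replicates, and in 2 of 3 HC (0, 1614 and 239 bp) and 0 of 3 CC_s replicates. Diet libraries therefore led in every comparison, with 10 of 12 marked beside 1 of 10 controls. Presence was 58.3 points higher in obese libraries (exact permutation p = 0.08) and 83.3 points higher in WL libraries (p = 0.02, adjusted p = 1). An H3K27ac region starting 8073 bp upstream of Ccl5, at chr11:83538591-83546155, was marked in all 3 H replicates (576, 912 and 446 bp) and in no C replicate. It was in no HC replicate either, in 1 of 2 CC_s libraries (2520 bp), in every CC_l and HH library (1363 to 4582 bp), in 2 of 3 HHC replicates and in 1 of 2 CCC libraries (1804 bp). In bins of 2000 bp, no stretch of the clusters gained or lost H3K27ac in H against C.

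**Figure D3:**
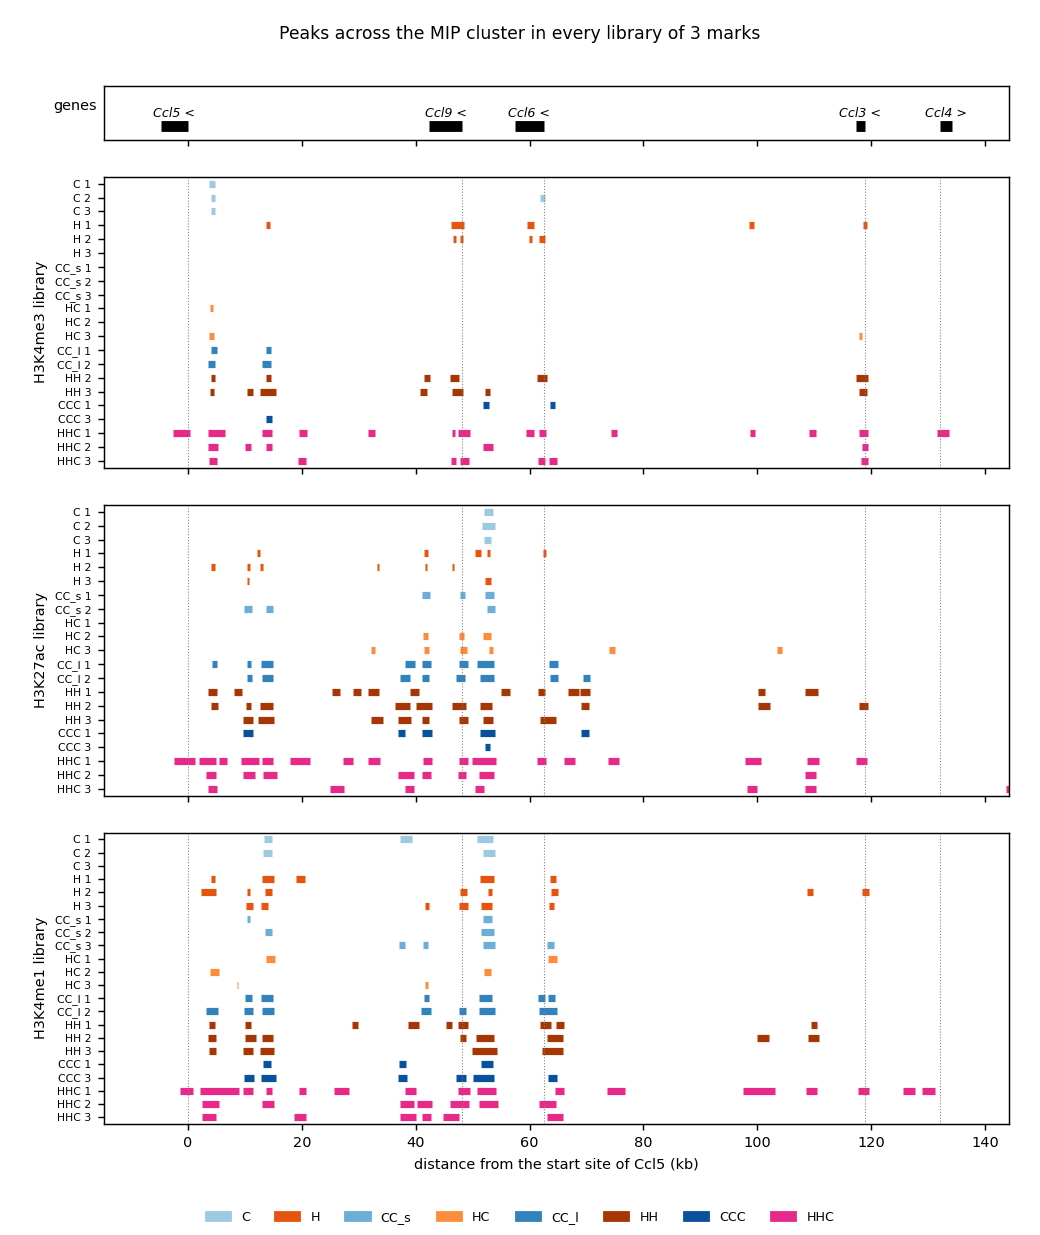
Peaks (bars, coloured by diet group) of H3K4me3, H3K27ac and H3K4me1 in every library (rows) across the MIP cluster, against the distance from the Ccl5 start site in kb (horizontal axis), with the 5 genes drawn to scale on top and dotted lines at their start sites. The H3K4me3 peaks just right of Ccl5 are in 12 of 21 libraries and in no H replicate. H3K4me3 at Ccl3 appears in 7 libraries, all by title of mice fed HFD at some time.

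Elsewhere in the MIP cluster, H3K4me3 at chr11:83571219-83572947, which overlaps the 3′ end of Ccl9, was present in both HH libraries (945 and 1350 bp) and in none of the other 19. H3K27ac at chr11:83638901-83641274, 8081 bp downstream of the Ccl3 start, was present in all HHC replicates (2044, 1862 and 1923 bp), in HH replicate 1 (2346 bp) and in no control. Between Ccl9 and Ccl6, the 2000 bp at chr11:83582001-83584000, which hold an exon of E230016K23Rik, had H3K27ac in 18 of 21 and H3K4me1 in 17 of 22 libraries, with 9 of 9 and 9 of 10 controls marked beside 9 of 12 and 8 of 12 diet libraries. In the MCP cluster the steadiest elements lay downstream of Ccl11. H3K4me1 at chr11:82068815-82075857 was present in 22 of 22 libraries, with 938 to 6963 bp covered, and H3K27ac inside it, at chr11:82069189-82075065, in 18 of 21. In the 12-week cohort this acetylation was narrower in the mice fed HFD at some time: 762, 0 and 0 bp in H beside 2600, 1577 and 2325 bp in C, and 339, 743 and 693 bp in HC beside 3025 and 2097 bp in CC_s, without overlap in either case. H3K27ac peaks were narrower over the whole library in these groups, with a median width of 477 to 801 bp in H beside 1372 to 1765 bp in C, and 672 to 906 bp in HC beside 1232 to 1494 bp in CC_s. In the 25-week cohort the groups overlapped, with 839, 4033 and 3890 bp in HH beside 3561 and 3897 bp in CC_l, and 2981, 5630 and 0 bp in HHC beside 5137 and 795 bp in CCC. The width at this region was not tested.

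**Figure D4:**
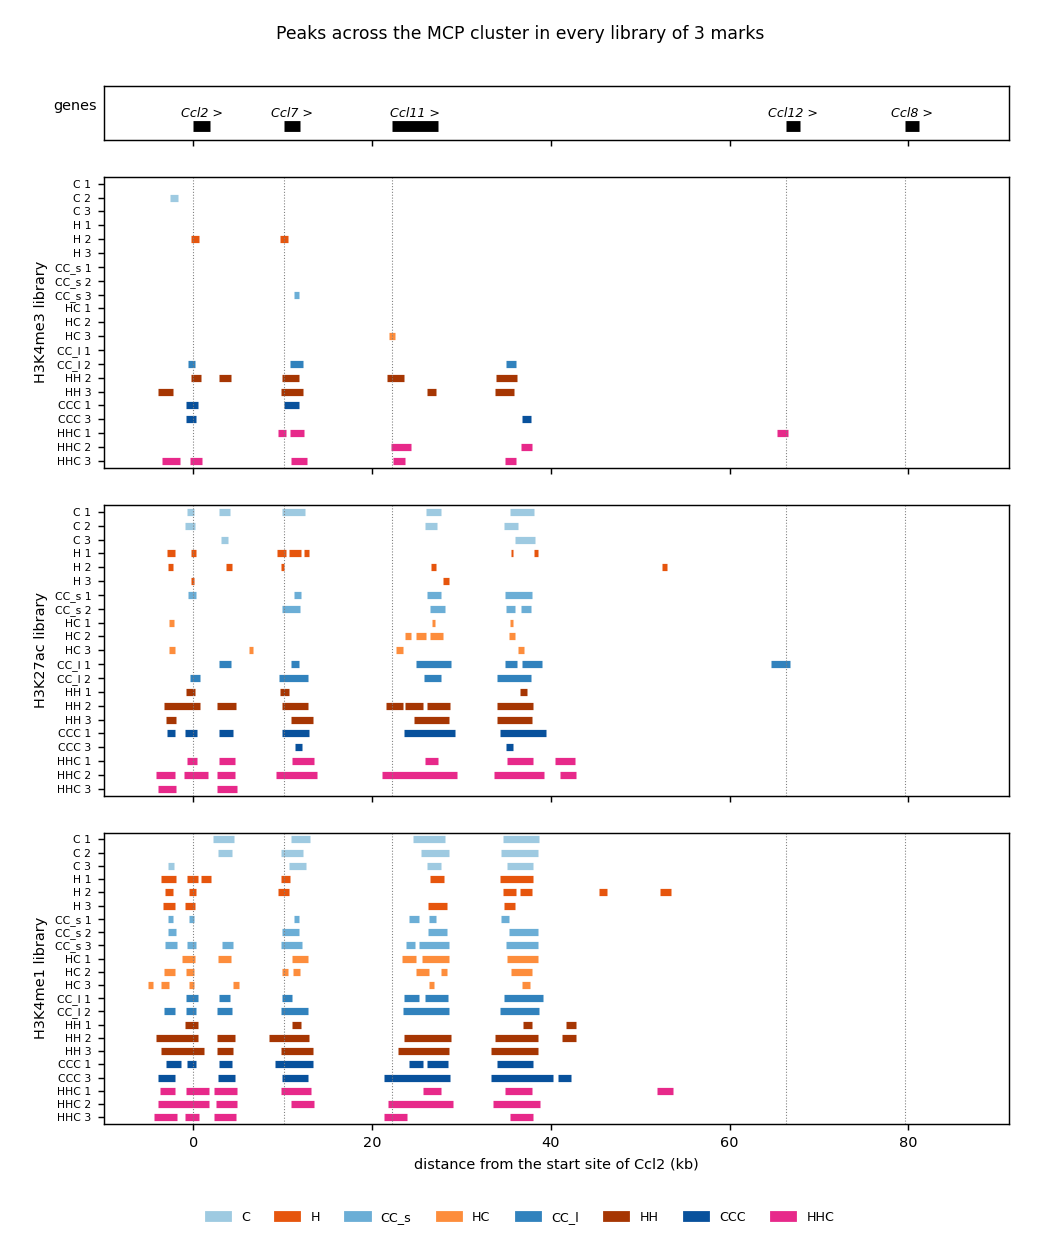
Peaks (bars, coloured by diet group) of the same 3 marks in every library (rows) across the MCP cluster, against the distance from the Ccl2 start site in kb (horizontal axis), with the 5 genes drawn to scale on top. The H3K4me1 peaks downstream of Ccl11 are in 22 of 22 libraries, and few peaks lie at Ccl12 and Ccl8.

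Counted over the clusters, changes between the genes were few. For H3K4me3, 1 of 3 regions was lost in H against C (10.1% of all distal regions gained or lost), 0 of 1 in HC against CC_s (0.727%), 1 of 7 was gained in HH against CC_l (9.5%) and 1 of 11 in HHC against CCC (7.61%). For H3K27ac, 1 of 5 was gained in H against C (9.08%), 0 of 7 changed in HC against CC_s (4.11%) and 0 of 10 in HH against CC_l (5.27%), and 1 of 14 was gained in HHC against CCC (4.42%). For H3K4me1, none of 9 changed in H against C (4.65%), none of 6 in HC against CC_s (1.84%), none of 9 in HH against CC_l (7.7%), and 1 of 13 was gained in HHC against CCC (6.6%). For H3K27me3, none changed of 8 in H against C (6.25%), 2 in HC against CC_s (2.04%), 2 in HH against CC_l (7.75%) and 5 in HHC against CCC (4.26%). After adjustment over all distal regions of a mark, no region of the genome passed in either comparison (0% called). With groups of this size no region could have passed alone. With equal numbers of peaks, no H3K4me3 or H3K27ac region of the clusters was gained or lost, and the H3K4me1 region upstream of Ccl5 was not gained.

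The share of the between-gene sequence covered by peaks gave 1 value per cluster and library. In the MCP cluster it was highest for H3K4me1, at 2.64% to 19.7%, and for H3K27ac, at 0.854% to 20.9%. H3K27ac there was lower in 12-week diet groups than in their controls without overlap: 2.85%, 2.07% and 0.854% in H beside 5.74%, 3.67% and 2.97% in C (difference -2.21 points, exact permutation p = 0.1, the smallest that 3 against 3 allows), and 1.43%, 4.44% and 2.23% in HC beside 5.94% and 4.8% in CC_s (-2.67 points, p = 0.2). Over the whole genome, H3K27ac peaks also covered less in H (9.6 to 24.4 Mb) than in C (42.8 to 49.0 Mb), while HC (11.6 to 34.8 Mb) overlapped CC_s (25.2 to 43.8 Mb), and with equal numbers of peaks the MCP difference averaged over cohorts was 0.15 points in obese libraries, beside -1.1 with all peaks, and -1.12 points in WL libraries, beside 0.286. In the 25-week cohort the differences were 0.00362 points for HH and 3.24 points for HHC. The MIP cluster had more H3K4me3 between its genes in HHC, 9.61%, 4.41% and 2.34% beside 0.781% and 0.777% in CCC, and in HH, 1.96% and 5.39% beside 1.38% and 2.12% in CC_l, the first pair without overlap and the second with overlap. Its H3K27ac was 13.7%, 11.5% and 9.22% in HH beside 8.07% and 7.4% in CC_l, and 23.7%, 11.6% and 8.57% in HHC beside 6.74% and 0.711% in CCC. The library at 0.711%, CCC replicate 3, covered 20.9 Mb of the genome, beside 94.3 Mb in CCC replicate 1 and 94.8 to 108.8 Mb in HHC. Averaged over cohorts, obese libraries had 2.04 points more MIP H3K27ac (exact permutation p = 0.1) and 2.04 points more MIP H3K4me1 (p = 0.11), and WL libraries 2.5 points more MIP H3K4me3 (p = 0.12). H3K27me3 covered 2.1% and 3.72% of the MCP sequence in the H libraries beside 0% in each C replicate. Each of the 13 H3K27me3 regions of that cluster was marked in 1 library only, so the H libraries shared none of them. Over the whole library, H3K27me3 peaks had a median width of 549 and 592 bp in H beside 1242 to 1425 bp in C. None of the 16 tests passed, the smallest adjusted p being 0.48. With equal numbers of peaks, the difference in MIP H3K27ac of obese libraries turned to -0.484 points.

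**Figure D5:**
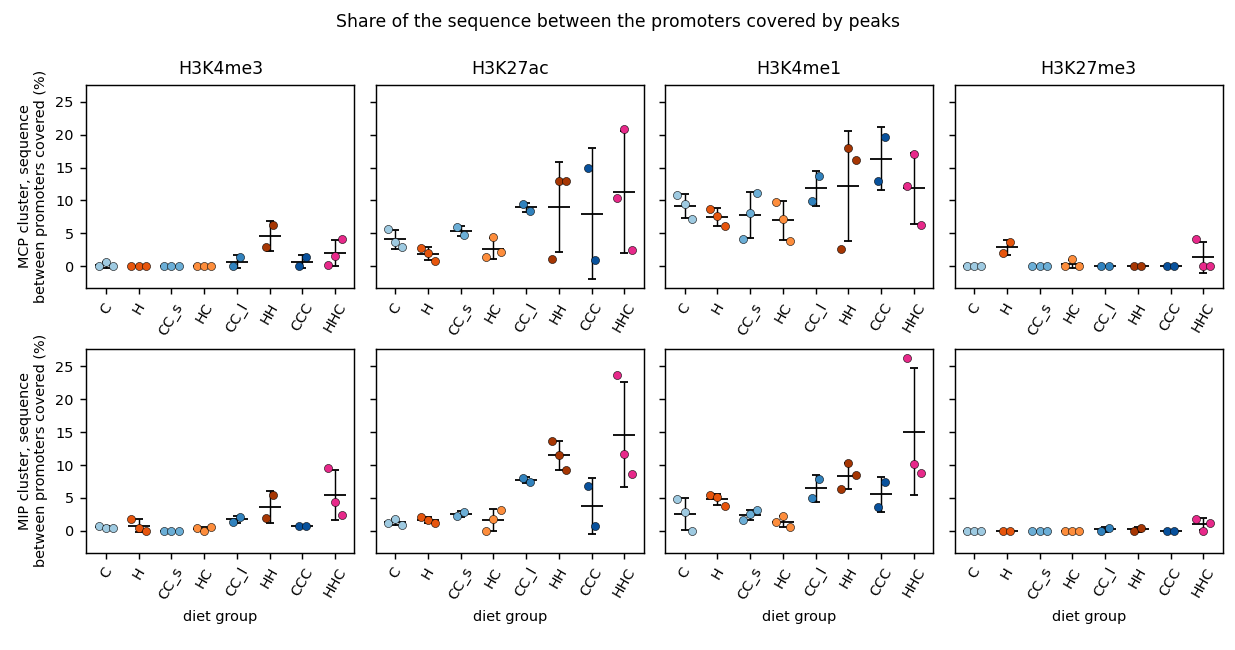
Percent of the sequence between the genes covered by peaks (vertical axis) in each library (points), by diet group (horizontal axis), with 1 panel per cluster and mark; horizontal bars are group means and vertical bars 1 SD. In the MIP cluster H3K27ac and H3K4me1 of HHC lie highest, with HHC replicate 1 at 23.7% and 26.2%, and in the MCP cluster H3K27ac of H (0.854% to 2.85%) lies below C (2.97% to 5.74%).

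The wider chemokine system was read from fixed lists, with groups from titles. Of 14 CC chemokine receptors and decoy receptors, 5 to 9 promoters had H3K4me3 in HHC beside 2 to 3 in CCC, and 4 to 5 in HH beside 3 in CC_l. The lymphoid receptors Ccr9 (in HH against CC_l) and Ccr7 (in HHC against CCC) gained H3K4me3. Among receptors, Ackr4, a scavenger of CCL19 and CCL21, lost H3K27ac and H3K4me1 in H against C, Ccr10 lost H3K27ac in H against C, Ackr2 gained H3K4me1 in HHC against CCC, and Ccr7 gained H3K27me3 in HH against CC_l. H3K4me1 at Ackr4 was present in 1 of 6 obese and 5 of 5 control libraries (-83.3 points, exact permutation p = 0.02, adjusted p = 1). Of 10 CC chemokines encoded elsewhere, 2 to 4 had H3K4me3 in every library, and Ccl17, a CCR4 ligand made by dendritic cells, gained H3K4me3 and H3K27ac in HHC against CCC. Of 13 CXC, CX3C and XC chemokines, 7 to 8 had H3K4me3 in HH and HHC beside 5 to 8 in CC_l and 7 in CCC. In this list Cxcl10 lost H3K27ac in H against C, Cxcl3 and Cxcl9 lost H3K4me1 in HH against CC_l, and Cx3cl1 gained H3K4me1 in HHC against CCC. Of 16 upstream genes of NF-kB, cytokine and transcription factor signalling, 11 to 15 had H3K4me3 in every library. Tnf gained H3K4me3 in HH against CC_l and H3K27ac in HHC against CCC, and it lost H3K27me3 in H against C and in HC against CC_s. Fos gained H3K4me1 in HH against CC_l. No gene of these lists passed after adjustment over all genes.

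The genes whose pattern was most like that of a cluster were found by Pearson correlation with the base pairs covered over the 5 members, as a description of libraries that also share peak number and cohort. For H3K4me3 over 21 libraries, S100a8 (r = 0.925), Saraf (0.908) and Acad8 (0.901) came closest to the MCP cluster, and Slfn1 (0.934), Fyb (0.932) and Nlrp3 (0.931) to the MIP cluster. The cover of the MCP cluster also followed the number of peaks in the library (r = 0.744), that of the MIP cluster less closely (0.471). Within the 12 libraries of the 12-week cohort, r was 0.876 for S100a8, 0.768 for Saraf and 0.206 for Acad8 with the MCP cluster, and 0.507 for Slfn1, 0.486 for Fyb and 0.704 for Nlrp3 with the MIP cluster. For H3K27me3 over 20 libraries, Gm4353 (0.969), Atp2b4 (0.955) and Acsbg1 (0.936) were most like the MCP cluster and A630076J17Rik (0.993), Gm12845 (0.992) and Pih1d3 (0.975) most like the MIP cluster, but these values rest on 4 and 2 libraries in which the cluster was marked.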

How the data were processed

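CUT&Tag libraries of H3K4me3 (21), H3K27ac (21), H3K4me1 (22) and H3K27me3 (20) were analysed as the authors deposited them: 1 list of peaks per library, with start, end and the unscaled signal of each peak (coverage summed over the peak, and its maximum), which cannot be compared between libraries. Per the submitters' notes and the study's methods, the authors trimmed reads (Trim Galore 0.6.6), aligned them to GRCm38 (Bowtie2 2.4.4), sorted them (SAMtools 1.13), made coverage (bedtools 2.30) and called peaks in each library alone (SEACR 1.3, stringent, threshold 0.01). Whether duplicates were removed is not given in the sources used here.

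The 10 genes and all gene lists were chosen with earlier results of these data known. Promoters were 2000 bp either side of 54361 start sites of 21853 protein-coding genes (GENCODE M21), and a promoter was marked when a peak overlapped it by at least 1 bp. Exact two-sided permutation tests, with labels permuted within cohorts and differences averaged over them, ran across all genes or distal regions with Benjamini-Hochberg adjustment (Python 3.11.15, numpy 2.4.6, scipy 1.17.1). They were tested on simulated data. The study's methods give a minimum read number for these libraries, but peak lists hold no read totals, so the depth of each library is unknown and a missing peak does not show that a mark is absent. Genes were named by a fixed rule: all 10 members, neighbours with a start site in the clusters, and genes of the chemokine system lists gained, lost or at an unadjusted p of at most 0.05. Of the cell type markers, those gained or lost for H3K4me3 were named. Markers that changed for the other marks were not named. Between-gene regions were named when gained, lost or marked in at least 75% of libraries. Cxcl11 was in no annotated gene and was left out of its list. Alternatives were windows of 500 and 5000 bp, an overlap of 200 bp, equal numbers of peaks (those of highest summed signal), groups from the treatment field, a replicate block, flanks of 0 and 50000 bp, bins of 2000 bp and leaving out each library.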

Additional observations from a re-analysis of the deposited data

Results flagged for a closer look

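In the 12-week cohort, 3 results differed between the obese and the WL comparison by a permutation test of the difference itself, out of 142 such differences computed, and none passed after Benjamini-Hochberg adjustment (adjusted p = 1 for each). H3K4me3 presence in the region 3450 bp upstream of Ccl5 differed by 167 percentage points, being 66.7 points higher in HC than in CC_s and 100 points lower in H than in C (effects 66.7 and -100, exact permutation p = 0.02). H3K27ac presence in the region 8073 bp upstream of Ccl5 differed by -150 points, with -50 points for HC against CC_s and 100 points for H against C (exact permutation p = 0.02). The share of the MIP between-gene sequence covered by H3K4me1 differed by -3.26 points, with -1.05 points for HC against CC_s and 2.21 points for H against C (exact permutation p = 0.05). The H3K4me3 region upstream of Ccl5 was neither gained nor lost in any comparison once libraries had equal numbers of peaks. Over the whole genome, H3K4me3 peaks covered less in H than in C. No test for a single outlying library within its group was run, since no group had more than 3 libraries.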

How the results depend on the processing

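No gene passed the adjusted threshold for any mark or diet comparison under any alternative run. Of the other settings, 323 values of the main results were counted as unchanged, 34 as moved and 15 as reversed. Where a library was left out, 563 were counted as unchanged, 16 as moved and 9 as reversed. Unchanged did not always mean of like size. With the replicate block, the obese MCP share of H3K4me3 was 0.664 points beside 1.83 and counted as unchanged. The obese MIP share of H3K27me3, -0.239 points beside -0.00419, did so too. The unchanged values also include numbers of genes called, and no gene was called under any setting. These counts therefore do not measure how stable the sizes were. The cause of the moved and reversed values was not tested.

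With an equal number of peaks per library, the mean difference in members marked was 0.167 for H3K4me3 in obese and 0 in WL libraries, -0.417 for H3K27ac in WL (0.5 with all peaks) and 0.333 for H3K27me3 in WL. Members gained for H3K4me3 fell to 0 in HH against CC_l and 0 in HHC against CCC, where the cut left no member peak in any library. For H3K4me1, 1 member (Ccl2) was gained in each of H against C, HH against CC_l and HHC against CCC. H3K4me1 over Ccl6 was -54.8 bp in obese libraries, the MCP share of H3K27ac was 0.15 points in obese and -1.12 in WL, and the MIP share of H3K27ac -0.484 in obese. Of the regions between genes, 0 were gained or lost for H3K4me3 in H against C, HH against CC_l and HHC against CCC, 0 for H3K27ac in H against C and HHC against CCC, and 0 for H3K4me1 in HHC against CCC.

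With groups from the treatment field, members marked with H3K4me3 differed by 0.833 in obese libraries, Ccl3 by -8.33 points and -241 bp, and the H3K4me3 shares by -0.978 points (MCP) and -0.891 points (MIP). Members gained were 1 (Ccl2) in HH against CC_l and 0 in HHC against CCC, with 0 regions gained or lost in each. A window of 5000 bp gave 1 member lost for H3K4me3 in H against C (Ccl5) and 2 gained in HHC against CCC (Ccl3, Ccl5). For H3K27ac it gave -0.167 members in obese libraries, 0 lost in HC against CC_s and 1 gained in HHC against CCC (Ccl5). For H3K4me1 it gave 1 gained in H against C (Ccl6) and 1 in HHC against CCC (Ccl5), and for H3K27me3 1.33 members in WL and 1 gained in H against C (Ccl8). A window of 500 bp gave 0 members lost for H3K27ac in HC against CC_s, 1 gained for H3K4me1 in H against C (Ccl2), and -16.7 points and -89.3 bp for H3K4me1 over Ccl6 in obese libraries. Flanks of 0 bp gave -0.674 points for H3K27ac of the MCP cluster in WL and 0.131 for H3K27me3 of the MIP cluster in obese libraries. Flanks of 50000 bp gave 0.916 (H3K27ac, obese), 3.51 (H3K4me1, obese) and 1.53 (H3K4me1, WL) points for the MCP cluster and 0.0643 for H3K27me3 of the MIP cluster in obese libraries. In bins of 2000 bp, 2 regions were gained or lost for H3K4me3 in HH against CC_l, 0 for H3K27ac in H against C and 3 in HHC against CCC, and 2 for H3K4me1 in each of HH against CC_l and HHC against CCC.

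The deviations of same-numbered libraries from their group means correlated at -0.561 to 0.228 over 36 pairs, 9 of them over 0.1, and in 0 of 6 comparisons were all 3 pairs over 0.1, so that the numbers were not taken to pair mice. With the replicate block, H3K4me1 over Ccl6 was -122 bp in obese libraries, the MCP share of H3K27ac in WL was -2.01 points and the MIP share of H3K4me3 in obese libraries -0.00559 points, and it changed no call. As 0 genes were called without the block and few pairs are left with it, this says nothing about stability.

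Leaving out each library gave, for H3K4me3, 0 to 1 members gained in H against C, 2 to 4 in HH against CC_l, and 1 to 2 gained and 0 to 1 lost in HHC against CCC. For H3K27ac it gave 0 to 1 gained and 1 to 2 lost in HC against CC_s, 0 to 1 gained and 0 to 1 lost in HH against CC_l and 0 to 1 gained in HHC against CCC. For H3K4me1 it gave 2 to 3 in H against C, 0 to 1 in HH against CC_l and 0 to 2 in HHC against CCC, and for H3K27me3 0 to 2 in H against C (Ccl8 and Ccl11 without H replicate 1) and 0 to 1 in HHC against CCC. Members marked with H3K27ac in WL ranged from -0.0833, without HHC replicate 1, to 1.17. H3K4me1 over Ccl6 in obese libraries ranged from -122 bp, without HH replicate 3, to 134 bp, and was -19.8 bp without H replicate 1 and -17.3 bp without CC_l replicate 1. The MCP share ranged from -2.1 to 0.874 points for H3K27ac in obese libraries (0.874 without HH replicate 1), from -3.21 to 3.78 in WL (-3.21 without CCC replicate 3, -2.13 without HHC replicate 2, -0.149 without HC replicate 2) and from -2.07 to 1.74 for H3K4me1 in obese libraries (1.74 without HH replicate 1, 0.278 without CC_l replicate 2). The MIP share of H3K27me3 in obese libraries ranged from -0.124 to 0.115. Over all genes, those gaining or losing H3K27ac in HHC against CCC numbered 542 with all libraries and 631 to 6315 with 1 left out. Read totals per library are unknown, and with groups of 2 or 3 libraries a peak present or absent in 1 library decides whether a gene counts as gained or lost.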
